A study of Mus musculus with 15 samples.

Results

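The windows here lie beside the centromeres of 14 mouse autosomes taken to carry no nucleolar organiser: chromosomes 1 to 11, 13, 14 and 17. They were chosen by position alone, as the 40 kb windows that start between 3 Mb and 8 Mb in the mm9 build, which gave 1750 of the 68162 windows in the table, 125 on each chromosome. The assembly of every chromosome opens with 3 Mb of unknown bases, so 3 Mb is the first assembled position, and no library had a call below it on these chromosomes. The data are genome architecture mapping (GAM) calls, in which a thin cryosection is cut, a slice through a single nucleus (a nuclear profile) is taken out by laser microdissection, its DNA is amplified and sequenced, and each window is called present (1) or absent (0). All 15 libraries held 1 nuclear profile each from 46C-ES cells, a mouse embryonic stem cell line of the 129/Ola strain in which GFP is knocked in at Sox1, grown with serum and LIF and kept in serum-free ESGRO medium for the last day. All 15 had failed the quality checks of the study. There was 1 growth condition and no treated or control group, and the only split in the labels was the prefix of the library name, f13 (7 libraries) or f14 (8 libraries), whose meaning the labels do not give. Whether the libraries came from separate cultures is not given either, so the p-values below measure only the spread between these 15 slices.

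Mouse chromosomes are telocentric: the centromere sits at one tip, beside long arrays of satellite repeats that the assembly leaves out. In interphase nuclei the satellite arrays of several chromosomes gather into chromocentres, dense clumps of heterochromatin that stain brightly with DNA dyes. The ribosomal gene clusters of the nucleolar organisers lie close to the centromeres of certain other chromosomes and gather at nucleoli. Where centromeric ends of several chromosomes share a chromocentre, a thin slice through it would hold the proximal windows of several chromosomes together. The comparisons here ask how often the proximal windows were called, whether their calls came in contiguous stretches, and whether ends of different chromosomes were found in the same slice, each against the rest of the same chromosomes.

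The sequences at these ends differ in how much of them occurs only once in the assembly. To show it, 300 bases from the middle of 4 windows are printed from the mm9 plus strand, 5′ to 3′, with capitals for every base that lies in a 32-base word occurring once in the whole assembly. The windows were the most widely shared one (chromosome 11, positive in 7 libraries), the most widely shared one on another chromosome (chromosome 5, 4 libraries), the centre of the longest unbroken run of calls (chromosome 6, 1 library), and the middle of the proximal 5 Mb of chromosome 14, where no library had a call.
Chromosome 11, chr11:3059851-3060150, coding exon and flanking intron of Sfi1: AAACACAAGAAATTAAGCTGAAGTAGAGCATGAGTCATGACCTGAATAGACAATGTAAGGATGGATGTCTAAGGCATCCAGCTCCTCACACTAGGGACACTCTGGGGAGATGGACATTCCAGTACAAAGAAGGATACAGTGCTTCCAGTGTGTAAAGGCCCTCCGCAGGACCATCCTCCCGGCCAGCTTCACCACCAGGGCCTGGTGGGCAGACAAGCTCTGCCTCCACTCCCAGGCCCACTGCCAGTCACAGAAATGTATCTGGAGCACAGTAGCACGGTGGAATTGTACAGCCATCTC
Chromosome 5, chr5:3299851-3300150, no annotated gene: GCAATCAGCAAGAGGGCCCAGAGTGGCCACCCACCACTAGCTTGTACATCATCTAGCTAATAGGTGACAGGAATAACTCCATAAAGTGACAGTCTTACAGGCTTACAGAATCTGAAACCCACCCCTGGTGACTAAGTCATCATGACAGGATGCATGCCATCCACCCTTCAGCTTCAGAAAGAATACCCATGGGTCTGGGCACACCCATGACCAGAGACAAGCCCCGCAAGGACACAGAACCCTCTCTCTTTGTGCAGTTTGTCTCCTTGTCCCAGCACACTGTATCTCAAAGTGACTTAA
Chromosome 6, chr6:6019851-6020150, intron of Slc25a13: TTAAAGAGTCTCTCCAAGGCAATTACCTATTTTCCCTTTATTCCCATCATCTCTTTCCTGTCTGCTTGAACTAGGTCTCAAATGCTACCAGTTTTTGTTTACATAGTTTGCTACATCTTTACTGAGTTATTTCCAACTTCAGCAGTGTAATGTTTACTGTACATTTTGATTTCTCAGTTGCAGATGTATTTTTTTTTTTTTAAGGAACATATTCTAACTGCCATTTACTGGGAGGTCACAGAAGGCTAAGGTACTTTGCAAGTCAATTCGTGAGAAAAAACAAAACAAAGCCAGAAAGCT
Chromosome 14, chr14:5499851-5500150, intron of Gm3383: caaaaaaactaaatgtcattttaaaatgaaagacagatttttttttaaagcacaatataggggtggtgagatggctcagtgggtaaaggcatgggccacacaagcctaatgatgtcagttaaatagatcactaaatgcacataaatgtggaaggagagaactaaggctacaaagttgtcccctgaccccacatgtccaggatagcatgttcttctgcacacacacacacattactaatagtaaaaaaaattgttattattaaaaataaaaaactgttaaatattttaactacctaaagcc
All 269 words of each of the stretches from chromosomes 11, 5 and 6 occurred once. None of the 269 words of the chromosome 14 stretch did: their median number of occurrences was 36, the highest was 50, and 99.99% of the occurrences were on chromosome 14 itself.

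The libraries were sparse and uneven. They held between 14 and 2848 positive windows in all, with a median of 696. The table holds calls and no read numbers, so the sequencing depth is unknown, and the number of calls is the limit on precision. Among the proximal windows there were 589 calls, and 3 libraries (f13e1, f14c2 and f14g4) supplied 374 of them, or 63.5%. Another 3 libraries had none: f13d5 and f14e1, which held 14 and 17 positive windows in all, and f14f2, which held 1458.

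Coverage, the percentage of windows called positive in a library, was higher at the proximal ends on average and in 8 of 15 slices, a difference within the spread between libraries. The lowest proximal coverage was 0%, the median 0.80% and the highest 8.34%, in f13e1. In the rest of the same chromosomes (47134 windows from 8 Mb on) the lowest was 0.0212%, the median 1.08% and the highest 4.70%, in f13g3. Proximal coverage fell below that of the rest in the other 7 libraries, and the ranges overlapped throughout. Those 7 include f13d5 and f14e1, with 14 and 17 positive windows in all and no proximal call. Among the 13 libraries with at least 100 positive windows, 8 were higher and 5 lower. The mean difference was then 0.684 percentage points (exact sign-flip permutation test, n = 13, p = 0.243). The excess was widest in f14c2, with 7.71% against 3.19%, in f13e1, with 8.34% against 4.6%, and in f14g4, with 5.31% against 2.61%. The deficit was widest in f14f2, with 0% against 2.05%, and in f13g3, with 3.09% against 4.70%. The mean was 2.24% ± 2.82 (SD, n = 15) at the proximal ends and 1.65% ± 1.61 in the rest. The difference of 0.590 ± 1.86 percentage points was smaller than its spread between libraries (exact two-sided sign-flip permutation test over 15 libraries, p = 0.247, adjusted p = 0.848 over 7 tests), with a 95% interval, from inverting that test, of -0.435 to 1.63. Within the f13 libraries the difference was 0.486 ± 1.82 (n = 7, exact p = 0.562) and within the f14 libraries 0.680 ± 2.02 (n = 8, exact p = 0.352). The prefixes differed by -0.194 percentage points, f13 minus f14 (exact permutation test, p = 0.853, adjusted p = 0.853).

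**Figure D1:**
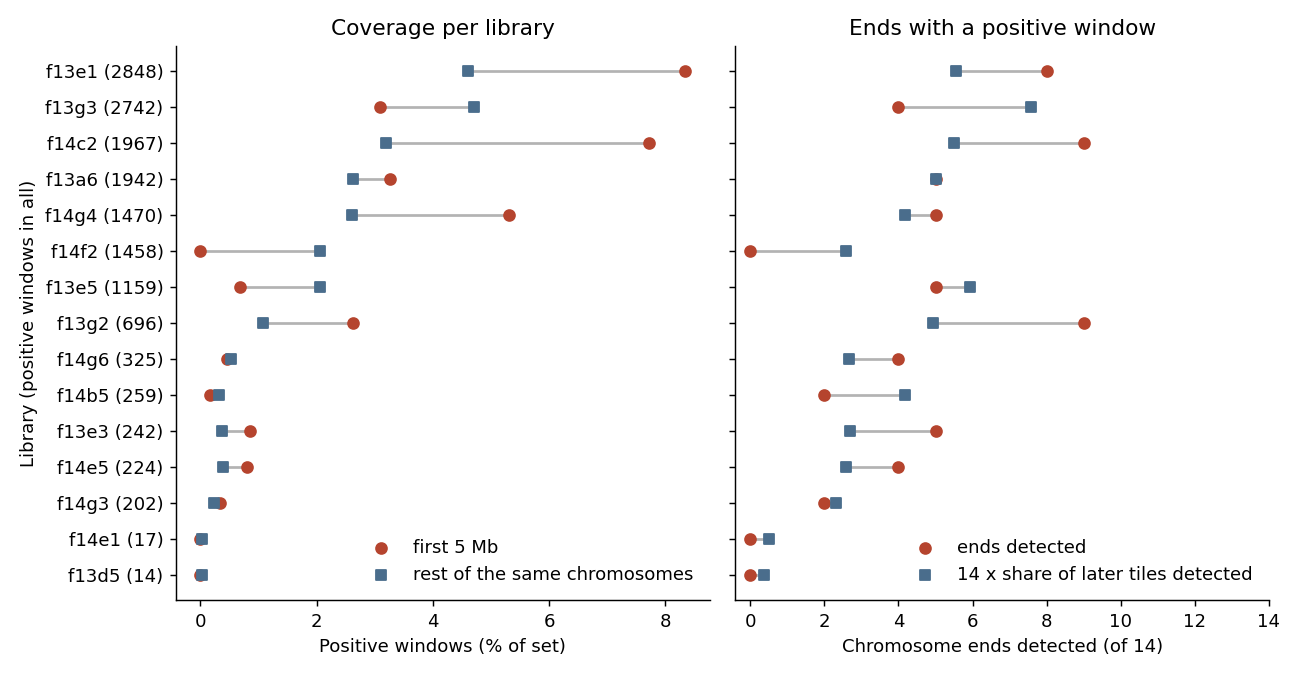
Left, the percentage of windows called positive in each library in the proximal 5 Mb (red circles) and in the rest of the same 14 chromosomes (blue squares), with libraries ordered by their positive windows in all. Right, how many of the 14 ends had at least 1 positive window (red circles) beside 14 times the share of later 5 Mb tiles detected in that library (blue squares). Red lies right of blue in 8 libraries on the left and 7 on the right.

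Against other chromosome ends the difference was likewise within the spread between libraries. The ends taken to lie next to nucleolar organisers were the proximal 5 Mb of chromosomes 12, 15, 16, 18 and 19 (625 windows). They had a mean coverage of 1.79% ± 2.22. The 14 chromosomes exceeded that in 7 libraries, fell below it in 6 and equalled it at 0% in 2, and the mean difference was 0.452 ± 3.15 percentage points (exact sign-flip permutation test, n = 15, p = 0.592, adjusted p = 0.848). That comparison leaned on single libraries. Without f14f2 the difference was 0.976 (exact p = 0.174, n = 14), and without f14c2 it was 0.0245 (exact p = 0.975, n = 14). The last 5 Mb of the same 14 chromosomes, their telomeric ends (1750 windows), had a mean coverage of 2.01% ± 2.1. The difference from the proximal ends was 0.236 ± 2.45 percentage points, with 7 libraries higher and 7 lower (exact p = 0.718, adjusted p = 0.848, n = 15). Within f13 and f14 the differences were 0.477 ± 2.14 and 0.430 ± 3.99 against the organiser ends (exact p = 0.594 and 0.875, n = 7 and 8), and -0.0898 ± 2.62 and 0.521 ± 2.43 against the telomeric ends (exact p = 0.922 and 0.547).

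Library f14f2 showed how far a single slice can leave these ends out. It had 0 calls in 1750 proximal windows. Counting error alone allows a share of up to 0.171% if windows are independent, and calls clustered by end, so that limit is too narrow. The library nevertheless had a call from 8 Mb on in 11 of the 14 chromosomes. Most of those calls were on 4 chromosomes: 448 on chromosome 2, 332 on chromosome 4, 126 on chromosome 14 and 50 on chromosome 1. The nearest positive window to a centromere among the 14 was on chromosome 4, at 11.52 Mb. In the same library 43 of the 125 proximal windows of chromosome 19 were positive (34.4%), and the proximal windows of chromosomes 12, 15, 16 and 18 had none.

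The 14 ends differed widely from each other. By proximal coverage over all libraries, chromosome 5 came first with 4.85%, followed by chromosome 2 with 3.73%, chromosome 6 with 3.47%, chromosome 11 with 3.20% and chromosome 9 with 2.93%. Chromosome 3 had 2.24%, chromosome 8 2.13%, chromosome 1 1.97%, chromosome 10 1.92% and chromosome 7 1.81%. The lowest were chromosome 13 with 1.49%, chromosome 4 with 0.960%, chromosome 17 with 0.693% and chromosome 14 with 0%. Each of these is a pool over 15 slices in which few slices held the end at all, and the order carries no test. Of the 210 combinations of chromosome and library, 62 had a call and 20 had at least 10, and those 20 held 446 of the 589 calls (75.7%). On chromosome 10, 32 of 36 calls came from f14g4, and on chromosome 4, 14 of 18 came from f13g3.

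Against its own rest, proximal coverage was higher on 10 chromosomes and lower on 4 (chromosomes 4, 13, 14 and 17). The widest excess was on chromosome 5, with 4.85% against 1.86%, where 7 libraries had calls. Its calls per library were 40 in f14g4, 23 in f13e1, 10 in f13g2, 8 in f14c2, 6 in f13e5, 3 in f13e3 and 1 in f14b5, so the first of these gave 44.0% of them. Chromosome 6 had 3.47% against 1.15%, from 42 calls in f14c2, 11 in f13e1, 5 in f13g2, 4 in f14g3 and 3 in f13g3. Chromosome 7 had 1.81% against 0.629%, from 3 libraries with 16, 9 and 9 calls. Chromosome 2 had 3.73% against 2.24% and was the most evenly spread of the leading ends, with 21, 15, 15, 10, 7 and 2 calls in 6 libraries.

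**Figure D2:**
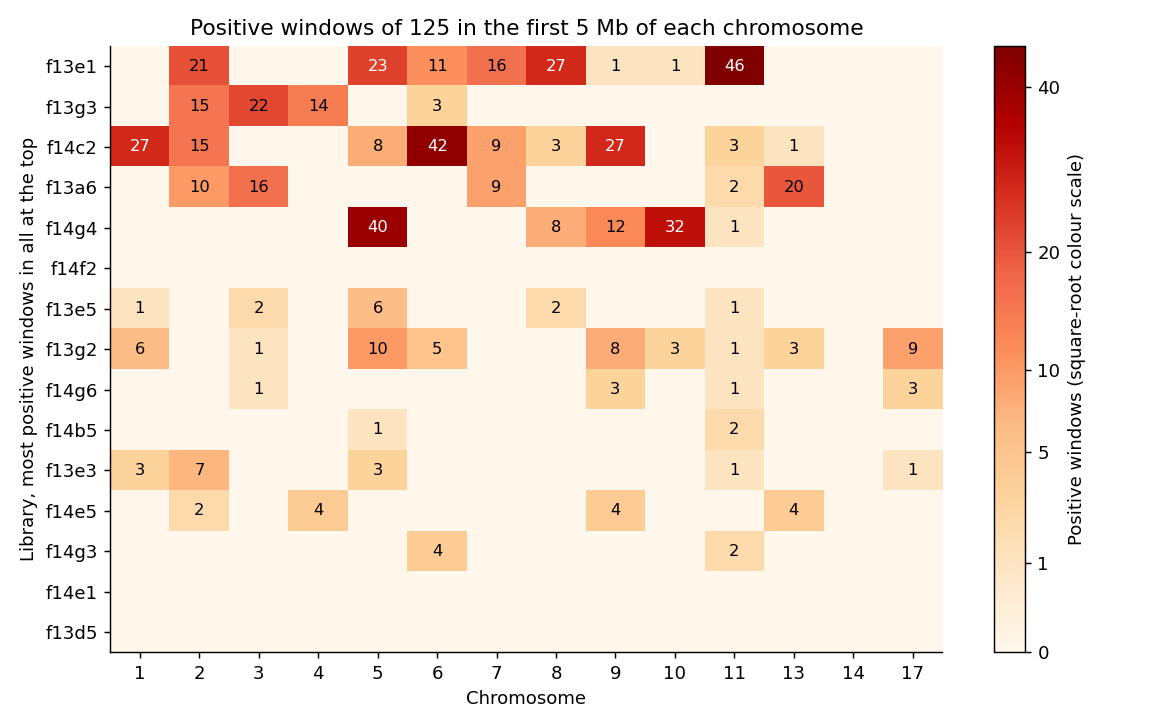
Positive windows, of 125, in the proximal 5 Mb of each chromosome (columns) in each library (rows, most positive windows in all at the top), on a square-root colour scale with the number printed in each cell above 0. The calls fall in 62 of 210 cells, and the largest are 46 on chromosome 11 in f13e1, 42 on chromosome 6 in f14c2 and 40 on chromosome 5 in f14g4.

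Chromosome 11 was found in more libraries than any other end, 10 of 15, but the breadth came from a single place. The window chr11:3040001-3080000 was positive in 7 libraries (f13a6, f13e1, f13e5, f13g2, f14b5, f14g3 and f14g4) and the next one, chr11:3080001-3120000, in 5 (f13e1, f14b5, f14c2, f14g3 and f14g6). Both hold exons of Sfi1, which codes for a centrin-binding protein of the centrosome. The second also holds exons of Drg1, a GTP-binding protein gene, and of Eif4enif1, which codes for a partner of the cap-binding factor eIF4E. Leaving out the windows positive in at least 4 libraries, chromosome 11 was detected in 4 libraries instead of 10. In f13e5, f13g2, f14b5, f14g3, f14g4 and f14g6 these 2 windows held every call of the proximal 5 Mb of chromosome 11. By contrast f13e1 had 44 further calls there, and 46 of the 60 calls of this end (76.7%) were its own. The 2 windows had no unknown bases, and 89% and 91% of their sampled 32-base words occurred once in the assembly, against a median of 80% over all proximal windows. Copies that the assembly does not hold are not counted in that share.

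Of the 1750 proximal windows, 511 (29.2%) were positive in at least 1 library, against 22.2% of the windows from 8 Mb on. At least 2 libraries shared 60 of them (3.43%, against 2.48%), and at least 3 libraries shared 11 (0.629%, against 0.132%). In the last 5 Mb of the same chromosomes 469 of 1750 windows (26.8%) were positive in at least 1 library, 56 (3.2%) in at least 2 and 2 (0.114%) in at least 3. These shares rest on the same uneven libraries and carry no test. The 11 windows lay on 5 chromosomes. On chromosome 2, 4 windows were positive in 3 libraries each: chr2:3600001-3640000 and chr2:3640001-3680000 with exons of Fam107b, chr2:4200001-4240000 with exons of Frmd4a, a FERM-domain scaffold gene, and chr2:5040001-5080000 with exons of Ccdc3. On chromosome 5 they were chr5:3280001-3320000 (4 libraries, no annotated gene), chr5:3720001-3760000 (3 libraries, exons of Ankib1, a ubiquitin ligase gene) and chr5:3880001-3920000 (3 libraries, exons of Mterf, a mitochondrial transcription termination factor gene). The other windows outside chromosome 11 were chr3:7960001-8000000 and chr8:6080001-6120000, each positive in 3 libraries and without an annotated gene. The library sets differed: f13a6, f13e3 and f13g3 shared 2 of the chromosome 2 windows, and f14c2 and f14g4 were among the libraries of all 3 chromosome 5 windows.

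**Figure D3:**
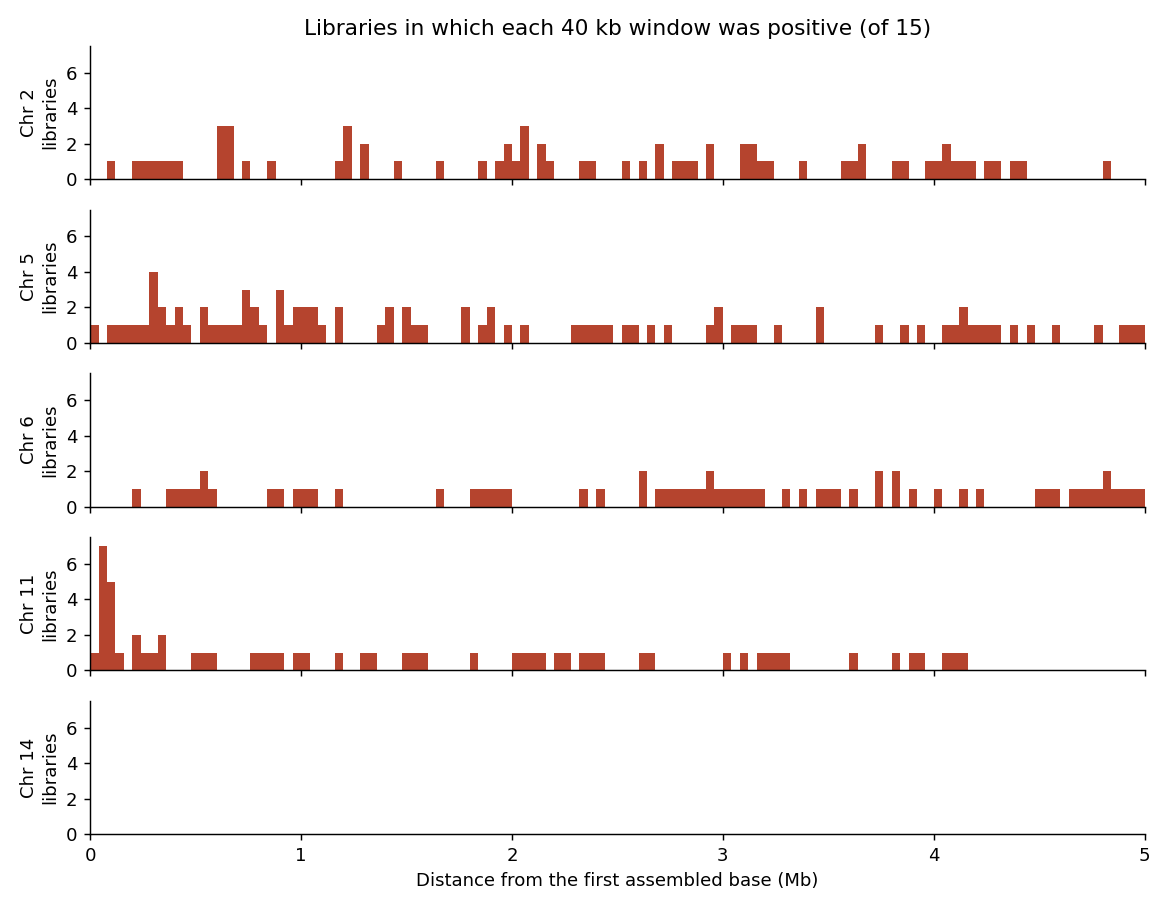
Number of libraries, of 15, in which each 40 kb window was positive, against distance from the first assembled base, for the proximal 5 Mb of chromosomes 2, 5, 6, 11 and 14. Chromosome 11 has 2 adjacent windows at 7 and 5 libraries close to the centromeric tip, chromosome 5 reaches 4, chromosome 2 reaches 3, chromosome 6 does not exceed 2, with 59 of its 125 windows positive in any library, and chromosome 14 is empty.

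The contiguity of calls at the proximal ends did not differ from that of the rest beyond the spread between libraries. The neighbour proportion, the share of positive windows with a positive window directly beside them, was compared where both sets held at least 5 positive windows, which left 11 libraries. At the proximal ends it ran from 0 in f13e3 and f14g6 to 0.671 in f13e1, with a median of 0.333. In the rest the median of those 11 was 0.378. The means were 0.320 ± 0.247 and 0.335 ± 0.192 (SD, n = 11), a difference of -0.0152 ± 0.141, with 6 libraries higher and 5 lower (exact sign-flip permutation test, p = 0.727, adjusted p = 0.848, 95% interval -0.110 to 0.0764). Within f13 the difference was -0.0755 ± 0.107 (n = 6, exact p = 0.156) and within f14 0.0571 ± 0.154 (n = 5, exact p = 0.50). The proximal calls formed 406 runs of consecutive positive windows, of which 301 (74.1%) were single windows, close to the 74.0% of 8228 runs in the rest. Runs of at least 5 windows made up 1.72% and 1.67%.

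The longest proximal runs lay mostly in f14c2 and f14g4. In f14c2 a run of 9 windows, chr6:5840001-6200000, covered 360 kb with Dync1i1, a dynein intermediate chain gene, and Slc25a13, the mitochondrial aspartate-glutamate carrier. A second run there, of 8 windows, chr6:7920001-8240000, began inside the proximal set but lay mostly beyond its limit at 8 Mb. That run held Col28a1 (a collagen gene), Mios (a component of a nutrient-sensing complex upstream of mTORC1) and Rpa3 (a subunit of replication protein A). In f14g4 there were runs of 7 windows at chr8:5880001-6160000, without a gene, and at chr5:7040001-7320000, of 6 windows at chr10:4080001-4320000, without a gene, and of 5 windows at chr5:5280001-5480000, with Cdk14. Library f13e1 had a run of 5 windows at chr6:3400001-3600000, with Hepacam2 and Ccdc132. The 3 remaining of the 10 longest were 4 windows long and all in f13e1, at chr5:3280001-3440000 over the cell cycle kinase gene Cdk6, and at chr11:3200001-3360000 and chr11:3760001-3920000, which held 4 protein-coding genes, Limk2 among them, and 8, the ribosome biogenesis gene Pes1 among them. A length of 4 windows was shared by 15 runs, so those 3 were set by the order of library names.

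Ends of different chromosomes did occur in the same slices. An end was counted as detected when at least 1 of its 125 windows was positive. The lowest number of ends detected in a library was 0, the median 4 and the highest 9 of 14, in f13g2 and f14c2. In f14c2 the 9 ends were those of chromosomes 1, 2, 5, 6, 7, 8, 9, 11 and 13, with 27, 15, 8, 42, 9, 3, 27, 3 and 1 positive windows. In f13g2, with 696 positive windows in all, they were those of chromosomes 1, 3, 5, 6, 9, 10, 11, 13 and 17, with between 1 and 10 positive windows each. Library f13e1 held 8 ends, and f13g3, which had 2742 positive windows, held 4, those of chromosomes 2, 3, 4 and 6.

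These numbers did not separate the ends from other 5 Mb stretches. Each chromosome was divided into further tiles of 5 Mb from 8 Mb on, 369 in all. On average 29.5% ± 21.4 of the 14 ends and 26.9% ± 14.6 of the later tiles were detected, a difference of 2.60 ± 15.8 percentage points, with 7 libraries higher and 8 lower (exact sign-flip permutation test, n = 15, p = 0.528, adjusted p = 0.848, 95% interval -6.18 to 11.4). In f13g2, 64.3% of the ends were detected beside 35.2% of the later tiles, and in f14c2 64.3% beside 39.3%. In f13g3 it was 28.6% beside 54.2%. Within f13 the difference was 4.02 ± 18.3 (n = 7, exact p = 0.594) and within f14 1.36 ± 14.3 (n = 8, exact p = 0.789).

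Joint detection was counted over the 91 pairs of ends. Within a library the number of pairs follows from the number of ends detected, so this measure weights the libraries with many ends more and adds no new observation for a single slice. The lowest share of end pairs found together was 0%, the median 6.59% and the highest 39.6%. The mean was 11.7% ± 13.7 for pairs of ends and 8.87% ± 7.99 for pairs of later tiles on different chromosomes. The difference of 2.86 ± 12.5 percentage points lay within the spread between libraries (exact sign-flip permutation test, n = 15, p = 0.401, adjusted p = 0.848, 95% interval -4.09 to 9.75), and it was 2.91 ± 16 within f13 (n = 7, exact p = 0.688) and 2.81 ± 9.68 within f14 (n = 8, exact p = 0.586).

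A joint detection ratio set the joint detections across libraries against the number that the separate detection counts of each end would give. Over all end pairs there were 160 joint detections against 116 from the products of the separate counts, a ratio of 1.37. Libraries differed in coverage, which lifts this ratio at every tile position, so it can only be compared between positions. Leaving out each library in turn gave 1.28 to 1.42. For pairs of later tiles on different chromosomes, at the same or at different positions, the ratio was 1.23. The difference of 0.144 was smaller than its jackknife standard error over libraries, 0.157. With at least 2 positive windows required per tile the order turned, to 1.37 for ends and 1.42 for later tiles. Both were lower without the 2 near-empty libraries (14 and 17 positive windows): the ratio was then 1.19 for ends and 1.10 for later tiles. Along the 18 tile positions that all 14 chromosomes have, the ends were the first in rank by coverage (2.24%, against 1.13% to 2.07%), the third in the share of tiles detected (29.5%, against 23.3% to 30.5%) and the fourth in the ratio (1.37, against 1.16 to 1.7). With both tiles at the same position, the median ratio of the 17 later positions was 1.30. The positions share their libraries and the ranks carry no test.

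**Figure D4:**
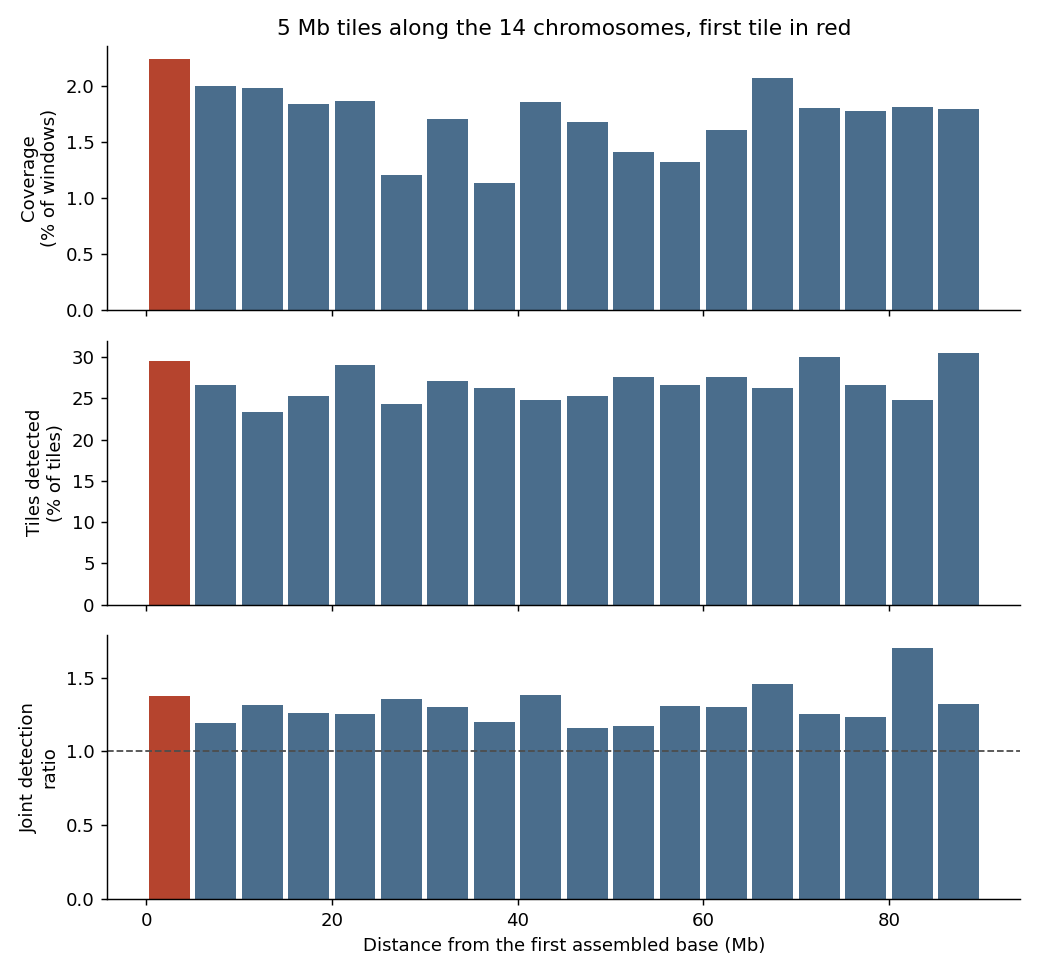
Coverage (top), share of tiles with at least 1 positive window (middle) and joint detection ratio for pairs of chromosomes (bottom) in 18 consecutive 5 Mb tiles from the first assembled base, each over 14 chromosomes and 15 libraries. The proximal tile (red) has the highest coverage, 2.24%, and lies inside the range of the later tiles (blue) in the other measures. The dashed line marks a ratio of 1, and uneven coverage between libraries lifts the ratio at every position.

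Among single pairs of ends, chromosomes 5 and 11 were found together most often, in 7 libraries, which were all 7 libraries that held the chromosome 5 end. This pair was picked for its count out of 91. Without the windows positive in at least 4 libraries it was found in 3. Next came chromosomes 9 and 11, in 5 libraries. Of the 91 pairs, 22 were never found together and 17 were found together in 1 library. The 22 include every pair with chromosome 14, whose end had no call and so could not be found with another.

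Slices that held an end mostly held more of the same chromosome. In 11 of the 12 libraries with both kinds of chromosome, coverage of the rest was higher on the chromosomes whose end was detected, with means of 2.53% and 1.40%. The widest gap was in f14c2, with 4.63% against 0.182%. When an end was detected the next 5 Mb tile was detected in 33 of 62 cases (53.2%), and when it was not, in 23 of 148 (15.5%). For later tiles the same shares were 62.1% and 14%. These comparisons were chosen after the values were seen and carry no test.

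Inside the proximal 5 Mb, coverage was 2.67% ± 3.87 (SD, n = 15 libraries) from 3 to 4 Mb, 2.04% ± 2.87 from 4 to 5 Mb, 2.29% ± 2.93 from 5 to 6 Mb, 2.11% ± 3.03 from 6 to 7 Mb and 2.11% ± 2.81 from 7 to 8 Mb. The 14 windows at the very tip had 5 calls on 4 chromosomes, and 42.7% of their sampled words occurred once.

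On average the proximal ends held less sequence that occurs once than the rest of the chromosomes. Of the 32-base words sampled every 400 bases, a mean of 71.9% per proximal window occurred once in the assembly, against 84.7% in the rest, 82.6% at the organiser ends and 87.0% at the telomeric ends. Without chromosome 14 the proximal mean was 77.0%. On chromosome 2 the end lay above its own rest, with 88.3% against 85.9%. GC content was 41.2% against 42.0% in the rest, unknown bases made up 0.759% and 1.04%, and protein-coding genes started at 9.01 and 9.21 per Mb. Chromosome 14 was the extreme: 567 of its 11749 sampled proximal words (4.83%) occurred once, 124 of its 125 windows were under 50% unique, and 102 of its 106 protein-coding genes carried provisional Gm names. Its 0 calls in 1875 positions allow a share of up to 0.160% from counting error alone, beside 1.36% in the rest of the chromosome. That limit takes windows as independent and is too narrow, because the calls of an end clustered in few libraries. Windows from 8 Mb on with under 20% unique words had a coverage of 0.156%. The ends of chromosome 7 (57.5% unique words per window) and chromosome 17 (69.3%) came next, with coverages of 1.81% and 0.693%.

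In every one of the 8 bins of uniqueness the proximal windows had higher coverage than the rest, from 0.221% against 0.156% in the least unique bin to 3.03% against 1.82% between 90% and 95%. Each bin pools the calls of all 15 libraries, and 3 libraries gave 63.5% of the proximal calls. The bins are therefore not separate observations. Compared within those bins, the difference was 0.791 ± 1.95 percentage points, with 8 libraries higher and 7 lower (exact sign-flip permutation test, n = 15, p = 0.148). Over windows with at least 80% unique words (907 proximal, 35594 in the rest) coverage was 2.80% ± 3.70 and 1.79% ± 1.76, a difference of 1.01 ± 2.65 with 9 libraries higher and 6 lower (exact p = 0.178). Over the same windows the difference in tiles detected fell to 1.15 percentage points (exact p = 0.756) and that in tile pairs to 0.877 (7 libraries higher, 8 lower, exact p = 0.724). Without chromosome 14 the coverage difference was 0.742 (exact p = 0.187). In that setting the difference in tiles detected rose to 4.53 percentage points (9 libraries higher, 6 lower, exact p = 0.302). That in tile pairs rose to 4.53 (7 libraries higher, 8 lower, exact p = 0.229). These 3 settings were chosen after the data were seen. The part of sequence uniqueness in the calls of single ends was not tested.

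**Figure D5:**
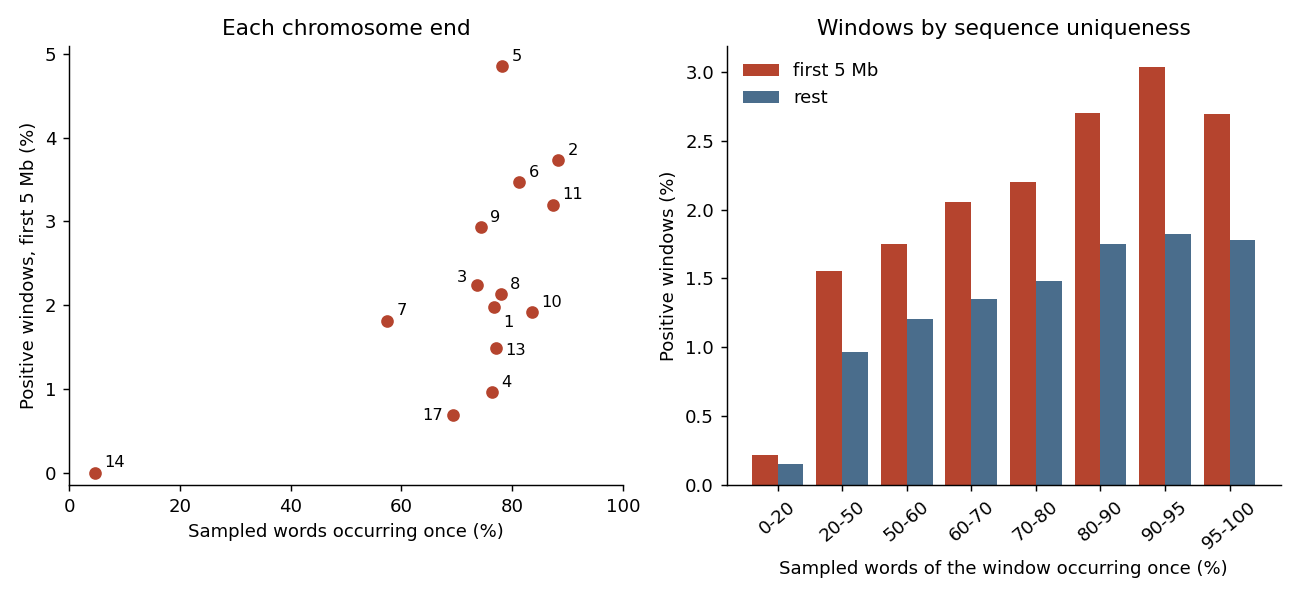
Left, coverage of the proximal 5 Mb of each chromosome over all 15 libraries against the mean share of sampled 32-base words per window that occur once in the assembly; numbers are chromosomes. Right, coverage of proximal windows (red) and of the rest (blue) by that share, pooled over the same libraries. Chromosome 14 sits alone at 0% coverage, and the red bar is the taller one in all 8 bins.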

How the data were processed

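The deposited table holds presence calls (0 or 1), another kind of value than reads, for 40 kb windows of mm9 in 15 libraries of 1 nuclear profile each. The submitters' processing notes name Bowtie2 2.1 and mm9. The methods describe duplicate removal and a fixed minimum of 4 reads per window for related libraries; whether it was used here is not given in the sources used here. Calls in low-uniqueness sequence depend on how multiply mapping reads were treated. Coverage, neighbour proportion (at least 5 positive windows in both sets), 5 Mb tiles and joint detection were computed per library in Python 3.11.15 with numpy 2.4.6 and pandas 2.3.3. Proximal and other windows were compared within libraries by exact two-sided sign-flip tests, the prefixes by an exact permutation test, with Benjamini-Hochberg adjustment over 7 tests. Genes came from GENCODE vM1 and sequence from NCBI build 37, whose chromosome lengths equal those of the table. Scripts were tested on simulated data. The simulated coverage tables drew windows independently, without the clustering of calls by end seen here. Intervals (95%) reflect the spread between libraries, and upper limits (3 counts) cover counting error only. These limits take windows as independent, which makes them too narrow. Windows positive in at least 3 libraries, the 10 longest runs and all 14 chromosomes were named. The members and lists were chosen with earlier results of these data known. Alternatives covered extent, weights, filters, tile size and each library left out.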

Additional observations from a re-analysis of the deposited data

How the results depend on the processing

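None of the 7 tests passed 0.05 under any alternative tried, so only directions moved. On a relative scale, (proximal − other) / (proximal + other), the coverage difference from the rest was -0.106 (exact p = 0.456), that from the telomeric ends -0.119 (exact p = 0.445), and the difference between prefixes 0.0644 (exact p = 0.826), each opposite in sign to the difference in percentage points. Against the rest or the telomeric ends, a library without a proximal call takes the lowest possible value on this scale, however few its calls. This held for 3 libraries, among them f13d5 and f14e1, with 14 and 17 positive windows in all. Their part in the turned signs was not tested. The neighbour proportion difference turned to 0.0405 with at least 1 positive window per set, 0.00624 with at least 20, and 0.00526 with the proximal set drawn to 13 Mb. By sign test it was higher in 6 of 11 libraries, and the shares of tiles and of tile pairs were each higher in 7 of 15, against the sign of their means. Among the 13 libraries with at least 100 positive windows, both shares were higher in 7 and lower in 6. The differences were then 3.48 and 3.31 percentage points (exact sign-flip permutation test, p = 0.462 and 0.399). Leaving out each library in turn gave coverage differences of 0.308 to 0.778 from the rest, 0.0245 to 0.976 from the organiser ends and -0.0735 to 0.506 from the telomeric ends (below 0 without f13e1 or f14g4), tile differences of 0.715 to 4.62, pair differences of 1.10 to 4.65, neighbour differences of -0.0429 to 0.00461 (above 0 without f13e3) and prefix differences of -0.737 to 0.356 (above 0 without f13e5, f13g3, f14c2 or f14g4). Without the windows positive in at least 4 libraries the tile difference was 0.0903, the pair difference 1.51 (5 libraries higher, 10 lower) and the coverage difference from the rest 0.537 (7 higher, 8 lower). The causes were not tested. With no read numbers deposited in the table used, calls missed for low depth cannot be told apart from absent DNA.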
